A study of Mus musculus with 2 samples.

Results

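The AP-1 transcription factor family was followed on a pair of mouse expression arrays through 10 genes, Fos, Fosb, Fosl1, Fosl2, Jun, Junb, Jund, Atf3, Maff and Batf. They were found as every non-control probe of both arrays that carries one of these gene names, which gave 15 probes and 10 of the 37074 gene names on the array. Of the 15 probes, 13 were well above the local background on both arrays, and these covered 9 of the 10 genes. Fosl1 was not well above background on either array.

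The labels give 1 control mouse under standard odor perception conditions and 1 mouse subjected to odor stimulation, called odor enriched. Both groups are mouse, with total RNA whose source is the olfactory bulb. The strain, sex and age of the mice, the odors used and the time between stimulation and sampling were not stated in the labels. The tissue field of both labels speaks of neurons, but no step that separates cells is given, and the comparison asks which transcripts differed between the bulb of a mouse with odor stimulation and the bulb of a mouse without it. With 1 array per group no test was possible, so every difference below compares 2 arrays, holds no spread between mice and carries no p-value. The 7 neuron markers used as a check (such as Snap25 and Rbfox3) were well above background on both arrays, and so were all markers of T and NK cells and of blood vessels, so the RNA was not of neurons alone.

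AP-1 is a dimer of basic leucine zipper proteins. A Fos family protein pairs with a Jun family protein, and Jun proteins can also pair with each other, with ATF proteins or with Batf. The dimer binds short DNA elements named TRE and CRE and switches on genes of growth, repair, inflammation and synaptic change. Fos, Fosb, Jun, Junb and Atf3 are immediate early genes whose transcripts rise within minutes of a stimulus and are quickly destroyed, and Fos staining is widely used to map cells that odors have activated in the bulb. The same genes respond to injury, cytokines and tissue handling in many cell types.

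Relative to each array's 75th percentile, all 9 measured members stood higher in the odor-enriched bulb. After scaling on the spike-in controls only the mean of Fosl2 did (0.78 log2 units). That mean is over 2 probes, which stood at 4.45 and 0.64 under the 75th percentile scaling. The spike-in probes' median difference of 1.76, which that scaling subtracts, is larger than the second of these. Differences are given on the log2 scale of signal, with the control value subtracted from the odor-enriched one. Of the 9 members, 6 were at least 2-fold higher (Fosl2, Jun, Fos, Batf, Maff and Fosb), and over all genes measured on both arrays 2747 of 23872 were, which is 11.5%. No member was at least 2-fold lower, while 1317 genes (5.52%) were. The members' median difference was 1.11 and that of all genes was 0.00. A Fos family gene, Fosl2, had the highest value and a Jun family gene, Jund, the lowest, with 2.11% of all genes at least as high as the first and 34.4% at least as high as the last. By single probes, 7 of 13 were at least 2-fold higher, against 4248 of 36639 probes (11.6%), and 0 were at least 2-fold lower, against 2385 (6.51%). Before any scaling between arrays, 11 of the 13 probes had the higher signal in the odor-enriched sample.

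**Figure D1:**
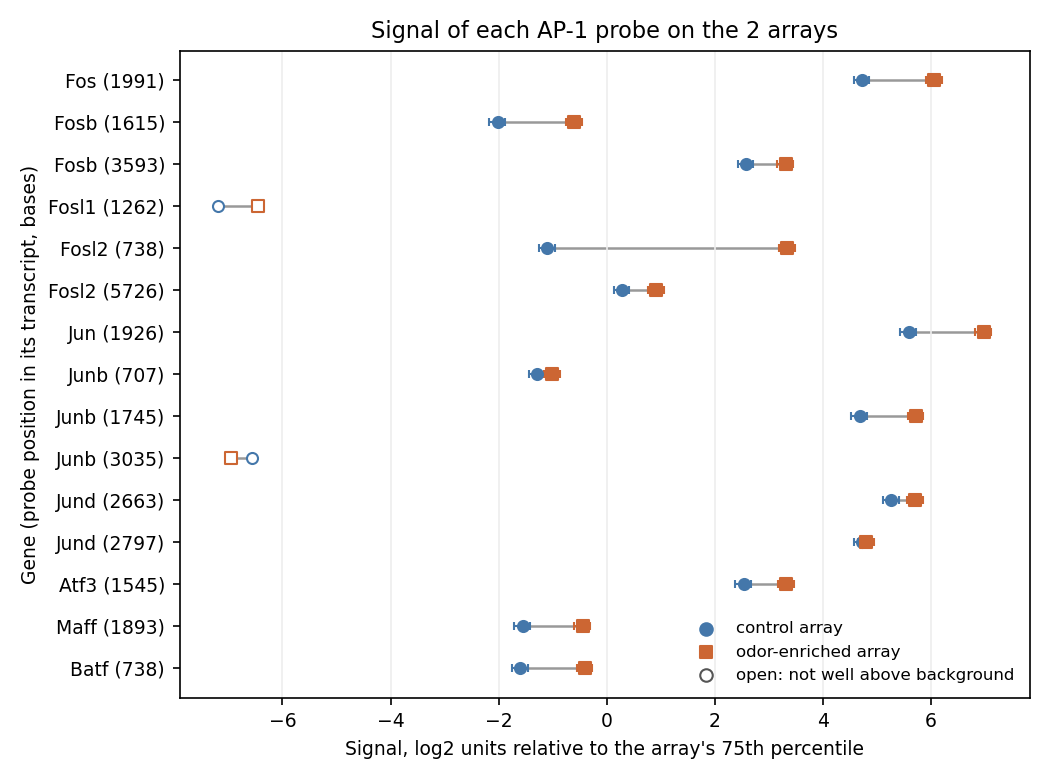
Signal of each of the 15 AP-1 probes on the control array (circles) and the odor-enriched array (squares), in log2 units relative to that array's 75th percentile, with bars for the scanner software's own signal error. The 13 filled pairs all lie further right for the odor-enriched array under this scaling, although with spike-in scaling only the genewise value of Fosl2 stays higher, and the open symbols of Fosl1 and the third Junb probe were not well above background. Levels of different probes cannot be compared with each other.

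Fos, the founder of its subfamily and the usual partner of Jun, was read by 1 probe at chr12:86818118-86818177 (mm9). Its signal was 6630 ± 663 on the control array and 13500 ± 1350 on the odor-enriched array, where ± is the error that the extraction software attaches to the spot. Scaled, this went from 4.73 to 6.07, a difference of 1.34 or 2.53-fold. Fos thus had a bright signal in the control bulb already, and the difference was larger than the error of 0.20 that the spot errors give it. The software's error was 10 to 10.1% of the signal for every measured member probe, bright or dim, and holds no spread between mice. No member probe was flagged as an outlier or saturated. Of all genes, 7.14% had a difference at least as high as that of Fos.

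Fosb, whose full and truncated forms are known from repeatedly stimulated neurons, was read by 2 probes that lie 1978 bases apart in the transcript and the same distance apart in the genome, so no intron separates them. The 5′ probe (chr7:19890146-19890205, mm9) went from 61.9 to 133, a difference of 1.42. The 3′ probe (chr7:19888168-19888227) went from 1500 to 2010, a difference of 0.73. Both probes were higher in the odor-enriched sample, the dim one by 2.67-fold and the bright one by 1.66-fold. The gene's mean was 1.08 (2.11-fold), which falls under 2-fold where the brightest probe (0.73), normexp background correction (0.77) or median centring is used. The 2 forms of Fosb cannot be told apart by these probes without their exons, which were not analysed here. The first 30 bases of the 2 probes, shown because their differences were unequal, are these.
Fosb, position 1615 of the transcript: ccttcttgctctgtaaactctttagacaaa
Fosb, position 3593 of the transcript: actgccgaccacaattcattgactccatag

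Fosl2, which encodes the Fos-related antigen Fra-2, had the largest and the least even difference of the family. Its 5′ probe (chr5:32455088-32455147, mm9) went from a signal of 117 ± 11.7 in the control sample to 2050 ± 205 in the odor-enriched sample, a difference of 4.45 or 21.8-fold. Its 3′ probe (chr5:32460076-32460135) went from 304 ± 30.5 to 382 ± 38.3, a difference of 0.64 or 1.56-fold. The 2 probes were therefore higher in the same sample by amounts that differ by 3.81. Over 8234 genes, single probes scatter about their gene's mean with a standard deviation of 0.63, which is smaller than the spread of a pair. They lie 4988 bases apart in transcript and genome alike, so again no intron separates them. The gene's mean of 2.54 (5.83-fold) describes neither probe. Neither probe shares a run of 20 bases with another probe of the array, and the median difference of the spots around them was 0.12 and 0.14. The cause of the disagreement was not tested. The first 30 bases of each probe show which stretches gave these values.
Fosl2, position 738 of the transcript: gattgctgagctgcagaaggagaaggagaa
Fosl2, position 5726 of the transcript: gctatggaggaaagaacatattaaaaactt

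Fosl1, which encodes Fra-1, had 1 probe (chr19:5455496-5455555, mm9) with a signal of 1.71 on the control array and 2.31 in the odor-enriched sample. Both values were not well above background, so no fold is given.

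Jun, the founder of the Jun subfamily, which can also bind DNA as a homodimer, had 1 probe (chr4:94716928-94716987, mm9). Its signal was 12100 ± 1210 on the control array and 25500 ± 2550 on the odor-enriched array. On the scaled axis this went from 5.59 to 6.98, a difference of 1.39 or 2.62-fold. The fold of Jun lies within the error of that of Fos, whose difference was 1.34. Jun and Fos were also the 2 single-probe members that stayed at least 2-fold higher under each of 13 settings other than spike-in scaling, along with Fosl2.

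Junb, a Jun protein with weaker activation and a known role in cytokine genes, had 3 probes. The 3′ probe within its transcript (chr8:87500843-87500902, mm9) went from 6440 to 10700, a difference of 1.04 or 2.06-fold. The 5′ probe (chr8:87501881-87501940), 1038 bases upstream, had a signal of 103 ± 10.4 on the control array and 101 ± 10.2 in the odor-enriched sample. These 2 signals lie within their errors of each other, and the 5′ probe's difference of 0.28 comes from the scaling between arrays. The third probe with the Junb name, at chr8:87496635-87496694, was not well above background, with signals of 2.65 and 1.63. The gene's mean over the first 2 probes was 0.66 (1.58-fold), and 1.04 where the brightest probe alone is used. The 5′ probe holds an inverted repeat of 9 bases, which 0.565% of 2831 probes taken at even steps over the array match or exceed, while the other 14 member probes hold 4 to 6. Its first 30 bases are shown with the parts of both arms that fall within them in capitals, above those of the brighter probe.
Junb, position 707 of the transcript: AGGGCTTTGcggacggttttgtCAAAGCCC
Junb, position 1745 of the transcript: ttcgtgtctaaagtctattttaagatgtgt

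Jund, the Jun gene that most tissues express steadily, differed least. Its probe at position 2663 went from 9660 to 10600, a difference of 0.44, and its probe at position 2797 went from 6650 to 5650, a difference of 0.08. The signal of the second was lower in the odor-enriched sample before scaling, and the sign of its difference rests on the scaling. The gene's mean was 0.26 (1.2-fold), within 2-fold under all settings but spike-in scaling.

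Across the 4 genes with 2 measured probes, the 5′ probe's difference minus that of the 3′ probe was 0.68 for Fosb, 3.81 for Fosl2, -0.77 for Junb and 0.37 for Jund. The labelling started from oligo-dT primers, so probes far from the 3′ end depend on RNA length. The 5′ probe was the higher in 3 genes and the lower in 1, but the Jund probes lie only 134 bases apart and say little on RNA length. The labels state no quality score of the RNA.

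Atf3, a stress-induced member that marks injured neurons and activated immune cells, had a signal of 1450 ± 145 on the control array and 2020 ± 202 on the odor-enriched array (chr1:192994547-192994606, mm9). Scaled, it went from 2.54 to 3.33, a difference of 0.79 or 1.72-fold. The spots around this probe had a median difference of 0.44, the second highest around any measured member probe, after Batf. Atf3 was within 2-fold on these arrays and at least 2-fold only with the series matrix values (1.12).

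Maff, a small Maf protein without an activation domain that pairs with Fos and with cap'n'collar factors, went from 85.3 ± 8.6 to 148 ± 14.9 (chr15:79189442-79189501, mm9). Its difference was 1.11 or 2.16-fold. Batf, which pairs with Jun proteins and acts with Irf4 in T and B cells, went from 82.6 ± 8.32 to 153 ± 15.4 (chr12:87049872-87049929, mm9). Its difference was 1.2 or 2.29-fold. Both were dim on both arrays, and both fell under 2-fold with normexp background correction (0.85 for Maff and 0.79 for Batf), which adds an offset of 50 to every signal. The spots around the Batf probe had a median difference of 0.44, and around the Maff probe of 0.24.

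**Figure D2:**
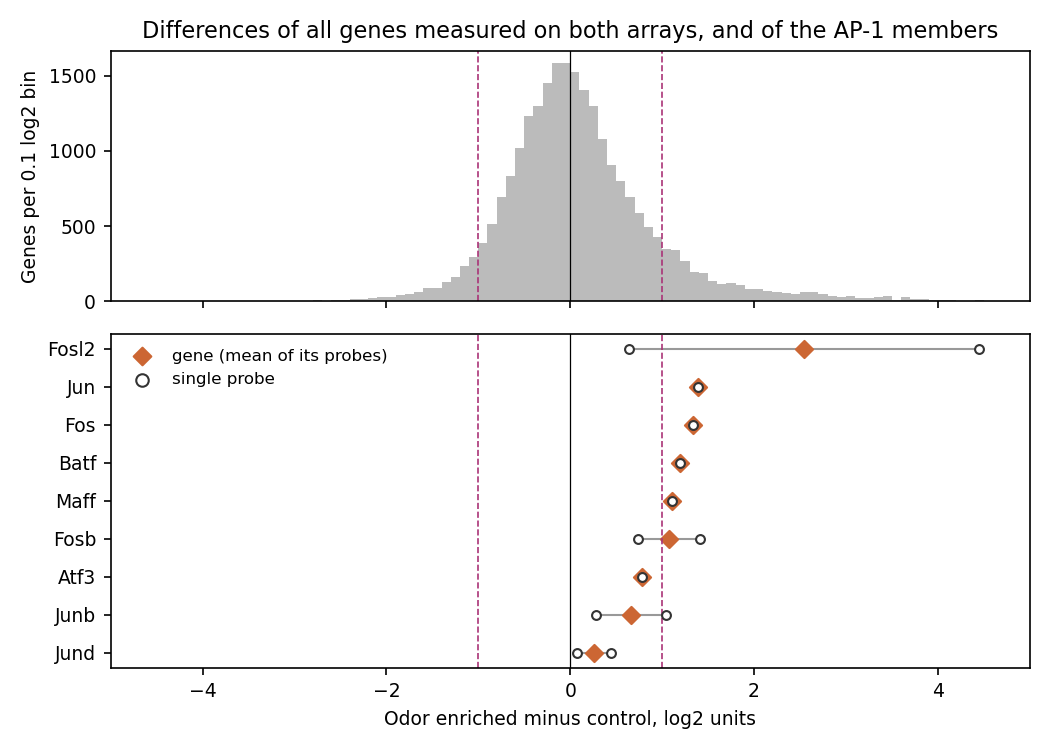
Upper panel, number of genes by difference (odor enriched minus control, log2 units, bins of 0.1) over the 23872 genes measured on both arrays, with differences beyond the axis counted in the outermost bins. Lower panel, the 9 measured members on the same axis as the mean of their probes (diamonds) and as single probes (open circles), with 2-fold marked by dashed lines. All members lie above 0 on this scaling, though after spike-in scaling only the mean of Fosl2 does. The 2 probes behind that mean span 0.64 to 4.45 on the scaling shown.

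The promoters of the members were searched because AP-1 and CREB proteins are known to bind at several of them. RefSeq promoters (GRCm38.p6) were at hand for 9 members with 11 start sites, and Fosl1 was not among them. The 250 bases before each start were searched on both strands. A TRE in its exact form (TGACTCA) was in no member's 250-base window and in 4.46% of 32851 promoters. Variant forms of the TRE were not searched as such. A full CRE (TGACGTCA) was in the promoter of 1 member, Maff, and in 1.55% of all promoters. A CRE with at most 1 mismatch, which includes the full CRE, was found for 4 members (Atf3, Fos, Jun and Maff) and in 10.6% of all promoters. The CRE core TGACG, part of the full CRE, was found for 6 members (Fos, Fosb, Junb, Atf3, Maff and Batf) and in 17.8% of all promoters. The serum response element core, the CArG box, was in no member's window and in 1.47% of all. Elements further upstream than 250 bases were not searched, so a member without a match here can still have one there. These matches describe letters only, and no binding was measured.

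The 110 bases before the start are printed for the 7 members with a CRE core or a CRE with at most 1 mismatch, with those matches in capitals. Another such match of Fos lies 129 bases before the start, outside the stretch. For Maff the start site with the full CRE is shown.
Fos, chr12:85473780-85473889, plus strand: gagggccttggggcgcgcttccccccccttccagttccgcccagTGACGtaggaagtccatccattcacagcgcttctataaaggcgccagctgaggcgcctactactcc
Fosb, chr7:19310046-19310155, minus strand: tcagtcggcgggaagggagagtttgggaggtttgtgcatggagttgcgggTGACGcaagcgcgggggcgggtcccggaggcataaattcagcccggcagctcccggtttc
Jun, chr4:95052223-95052332, minus strand: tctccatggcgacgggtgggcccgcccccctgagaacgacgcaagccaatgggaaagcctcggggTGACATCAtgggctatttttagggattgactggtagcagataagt
Junb, chr8:84978749-84978858, minus strand: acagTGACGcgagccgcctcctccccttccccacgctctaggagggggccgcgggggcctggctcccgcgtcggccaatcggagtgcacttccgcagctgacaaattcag
Atf3, chr1:191183334-191183443, minus strand: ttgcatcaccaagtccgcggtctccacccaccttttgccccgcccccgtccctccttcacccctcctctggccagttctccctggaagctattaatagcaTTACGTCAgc
Maff, chr15:79347410-79347519, plus strand: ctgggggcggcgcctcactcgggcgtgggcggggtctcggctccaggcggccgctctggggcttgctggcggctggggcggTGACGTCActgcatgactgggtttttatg
Batf, chr12:85686610-85686719, plus strand: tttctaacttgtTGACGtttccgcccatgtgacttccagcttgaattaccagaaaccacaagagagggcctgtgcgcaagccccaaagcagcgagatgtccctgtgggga

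The 4 members with a CRE or a CRE of 1 mismatch had differences from 0.79 (Atf3) to 1.39 (Jun). Fosl2 and Jund, the 2 members whose windows held neither these nor the CRE core, had the highest and the lowest difference of the family. The element in the promoter of Jun, TGACATCA, stood 45 bases before its start. The rank of Fosl2 rests on its 5′ probe (4.45), and its 3′ probe (0.64) lies below the value of each member with a match. Whether a match goes with the size of the difference was not tested.

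Relatives of the AP-1 genes stood nearer to 0 than the members, by their list medians, although the medians of the first list below and of the MAP kinase and turnover lists took either sign between settings. Of 11 other AP-1 and Maf family genes, 1 was at least 2-fold higher and 0 lower, with a median of 0.12. That gene was Batf2 (3.87, 14.7-fold), an interferon-induced relative of Batf, which went from -1.44 to 2.43. Batf3 stood at 0.46, and the lowest were Nrl (-0.61, 0.04 with normexp), Jdp2 (-0.33) and Maf (-0.15, above 0 under 2 of 13 settings). Of 13 ATF, CREB and C/EBP genes 2 were at least 2-fold higher and 1 lower (over all genes 11.5% and 5.52%), with a median of 0.23. These were Creb5 (1.47, 0.82 with normexp), the acute-phase factor Cebpb (1.26) and Atf5 (-1.52), a factor that olfactory sensory neurons express strongly. Ddit3, a gene of the stress response, stood at 0.95, and Cebpd (-0.69) and Creb3 (-0.31) were lower in the odor-enriched sample, Creb3 turning to 0.02 with the series matrix values. The 6 cap'n'collar and Bach genes, partners of Maff, all lay within 2-fold, with a median of 0.39. Nfe2l3 (0.84), Nfe2l2 (0.81), the master of the oxidative stress response, and Bach1 (0.78) led them, and Bach2 (-0.07) and Nfe2 (-0.01) took either sign between settings.

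Over all genes, 11.5% were at least 2-fold higher and 5.52% lower. The counts for the MAP kinase genes and promoter factors upstream of AP-1 lay near those shares. Of 23 genes of the MAP kinase cascades, which activate Fos and Jun by phosphorylation, 2 were at least 2-fold higher and 2 lower, with a median of 0.15. The higher genes were Map3k8 (1.75, 0.92 with normexp), a kinase of inflammatory signalling, and Rps6ka3 (1.15, 0.81 with normexp), followed by Mapk12 (0.81). The lower genes were Map2k7 (-1.14, -0.78 with normexp), an activator of the Jun kinases, and Map2k1 (-1.06, -0.73 with the series matrix values), followed by Mapk3 (-0.87). Of 12 factors bound at the Fos and Jun promoters 1 was at least 2-fold higher, Elk4 (1.1), whose probes ranged from -0.27 to 2.17 and whose value was 0.60 with normexp. Elk3 (0.96) and Mkl2 (0.76) followed, Mef2b was lowest (-0.82), and Srf stood at -0.07 with either sign between settings. The 11 genes of AP-1 protein and transcript turnover lay within 2-fold, with a median of -0.08. Zfp36, which destroys Fos and cytokine messages, stood highest (0.87), then Zfp36l1 (0.24) and Det1 (0.22), and the ubiquitin ligase genes Fbxw7 (-0.43) and Rfwd2 (-0.36) and the deadenylase Cnot6 (-0.57) stood lowest.

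Genes known as AP-1 targets were mixed. Of 29 measured targets of 32 on the array, 10 were at least 2-fold higher and 1 lower (over all genes 11.5% and 5.52%). Their median was 0.34, and 4 to 11 were at least 2-fold higher over 13 settings. The collagenase Mmp13, a classical AP-1 target, went from -5.0 to -1.38, a difference of 3.63 that was 1.35 with normexp. Lif (2.84), a cytokine of nerve injury, and Il6 (2.49, 0.94 with normexp) followed. Npy (-1.59), a neuropeptide that is also a marker of olfactory ensheathing cells, Mmp9 (-0.93) and Cdk5 (-0.48) were lowest. The neuropeptide genes on the list did not move together: Pdyn, chosen here after its value was seen, stood at 1.71.

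The 19 other immediate early genes resembled the AP-1 members in their median, 1.12 against 1.11. Of them, 11 were at least 2-fold higher and 0 lower (over all genes 11.5% and 5.52%). In the same sample 6 of 7 endothelial markers were at least 2-fold higher. Cyr61 (2.06), a matrix protein gene of vessels and repair, Klf2 (1.94), a factor of endothelium and T cells, and Egr2 (1.79) stood highest. Npas4 (-0.28), an immediate early gene induced in neurons, Egr4 (-0.26) and Myc (-0.41) stood lowest, and each turned above 0 under 1 of 13 settings. Within the group, then, the genes with the highest and the lowest values differed by more than 2 log2 units.

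Of 12 measured genes of the programme that Batf and Irf4 control in lymphocytes, 6 were at least 2-fold higher and 0 lower. Over all genes the shares were 11.5% and 5.52%. The median of the programme was 1.1, and all 11 markers of T and NK cells were at least 2-fold higher in the same sample. Interferon gamma, Ifng, went from -4.10 to 3.91, a difference of 8.00 (5.82 with normexp), followed by the granule protease Gzmb (4.18) and the activation marker Cd69 (4.14). Il21 stood lowest (-0.59, 0.10 with normexp). Il17a and Ctla4 passed the background only on the odor-enriched array, at least 3.55-fold and 3.15-fold higher, measured against the higher of the gene's own control signal and the lowest control signal well above background. Il2 passed it only on the control array, without a fold.

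**Figure D3:**
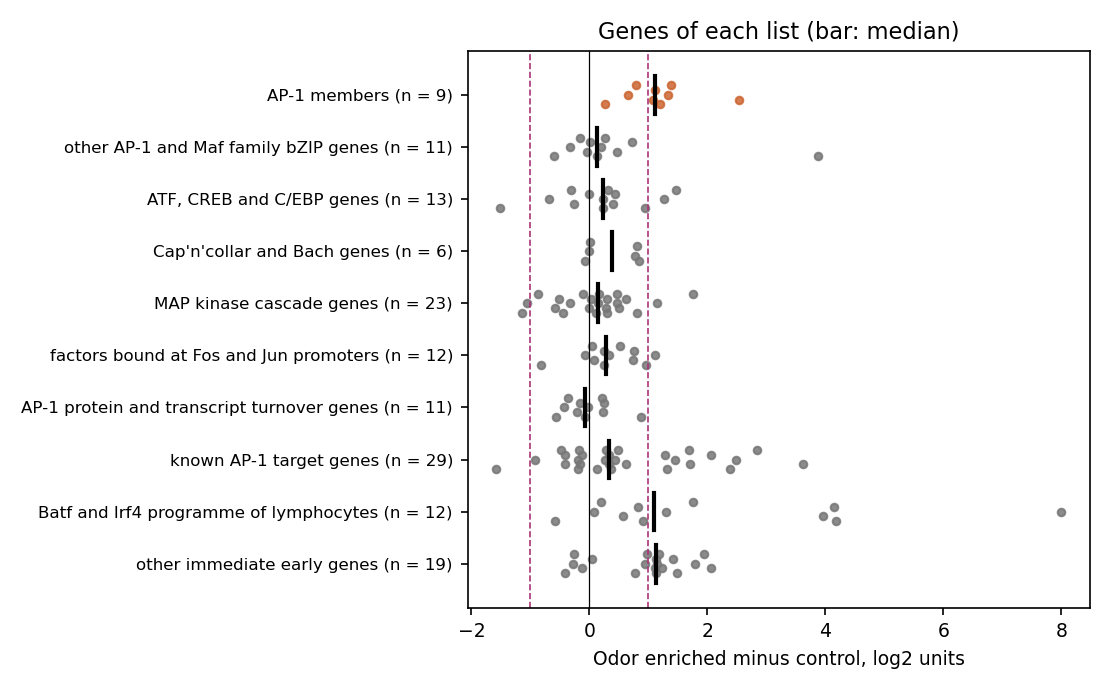
Difference of each gene measured on both arrays (odor enriched minus control, log2 units) for the AP-1 members and the 9 lists around them, with the list's median as a bar and 2-fold as dashed lines. The medians of the AP-1 members (1.11), the other immediate early genes (1.12) and the lymphocyte programme (1.1) stand above those of the other lists, which run from -0.08 to 0.39. After spike-in scaling the medians of all lists lie below 0, and those of the other lists run from -1.84 to -1.37.

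Markers of T and NK cells and of blood vessels were higher in the same sample as the AP-1 members, those of some other cell types were lower, and in bulk RNA more cells of a type and more RNA per cell cannot be told apart. For the counts that follow, the shares over all genes were 11.5% at least 2-fold higher and 5.52% lower. All 11 markers of T and NK cells were at least 2-fold higher, with a median of 3.83 and a summed level that went from 1.97 on the control array to 31.5 on the odor-enriched array. Endothelial markers (6 of 7, median 1.80, summed level 27.3 and 55.6) and mural cell markers (5 of 6, median 1.99, 5.34 and 16.4) were higher as well. After spike-in scaling the median of the T and NK cell markers was 2.07 and that of the endothelial markers 0.04, and with normexp they were 2.68 and 1.46. None of the 7 neuron markers differed by 2-fold (median -0.30, summed level 48.7 and 39.8), nor any of the 8 markers of bulb interneurons (median -0.23). Both medians turned above 0 with the series matrix values. With spike-in scaling they were -2.06 and -1.99, and the median of the olfactory sensory neuron markers was -3.26. Of 6 measured markers of olfactory sensory neurons 5 were at least 2-fold lower (median -1.5, 486 and 112), and of 6 markers of ensheathing cells 4 were (median -1.34). Microglia (1 of 7 higher, median 0.11), monocytes and neutrophils (3 of 8 higher and 1 lower, 0.22), B cells (1 of 4 higher, 0.68) and erythroid cells (3 of 6 higher, 1.02) stood at or above 0. Astrocytes (1 of 6 lower, -0.54), meningeal fibroblasts (3 of 6 lower, -0.94), mitral and tufted cells (1 higher and 1 lower of 5, -0.36) and oligodendrocytes (none of 6 past 2-fold, 0.19) completed the lists. The higher gene of the mitral and tufted cell list was Tbx21 (3.1), and the other measured genes of that list were all below 0. Which cells the Tbx21 signal came from was not tested, and all 11 markers of T and NK cells were higher in the same sample. Cd79a of the B cell list and Cnga4 of the sensory neuron list passed the background only on the control array. The part of cell composition in the AP-1 differences was not tested.

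**Figure D4:**
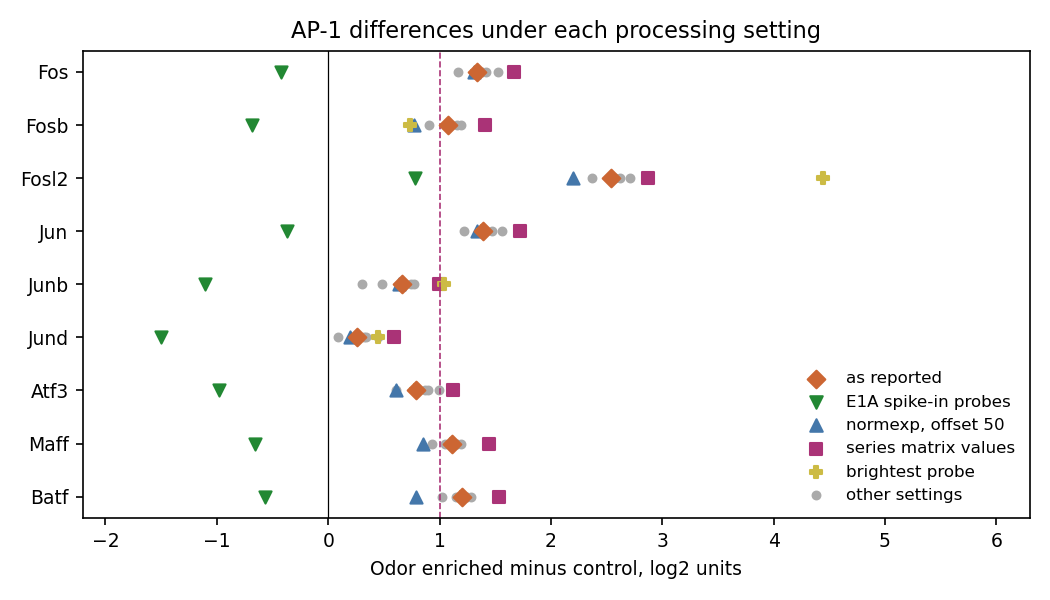
Difference of each measured member (odor enriched minus control, log2 units) as reported (diamonds) and under the alternative settings, with 2-fold as a dashed line. Fos, Jun and Fosl2 stay beyond 2-fold under the 13 settings other than spike-in scaling. With spike-in scaling 8 of the 9 members lie below 0. Fosl2 then stands at 0.78, a mean over unequal probes (4.45 and 0.64 under the scaling as reported).

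Both arrays lie on the same slide. Of all probes, 72.5% were well above background on the control array and 66.0% on the odor-enriched array, and the 75th percentile of log2 signal was 7.97 and 7.66, so the odor-enriched array was the dimmer overall. The difference of repeat spots of a probe had a standard deviation of 0.05 over 300 probes and that of different probes of a gene 0.63. The difference of Jund (0.26) lies below the latter, and those of Junb (0.66) and Atf3 (0.79) lie near it.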

How the data were processed

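Total RNA was labelled with Cy3 by oligo-dT priming and hybridized to Agilent 8x60K arrays, per the labels' protocols. Per the file headers, the authors read the scans with Feature Extraction 11.5.1.1 of Agilent. Its processed signal is, per the file headers, an intensity from which the software subtracted the background within the array, not scaled between arrays. The series matrix that the authors deposited is on a log2 scale, with medians of -9.48 and -8.98. They equal the log2 signal minus 1 constant per array (within 0.001 for 90.4% and 99.8% of probes), whose origin is not given in the sources used here, so the matrix served as an alternative.

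Outlier-flagged spots were left out, the log2 signals of a probe were averaged, and each array's 75th percentile over 56605 probes was subtracted. Probes that passed the well-above-background flag on both arrays were averaged for each gene. A gene above background on 1 array got a bound against the other array, at the higher of its own signal there and the lowest signal well above background. Genes were counted at 2-fold, with no test.

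The members, the 9 companion lists and the 15 marker lists were chosen with earlier results of these data known. All members were named, and from each companion list the 3 largest differences in each direction and the genes seen on 1 array only. A gene that this rule takes is not reported here. As alternatives, the scaling (array median, detected probes, quantile, cyclic loess, spike-in probes), normexp with an offset of 50, the matrix values, the flags, the probe summary, the threshold (1.5-fold, 3-fold) and a mask of patches were changed. The mask left out spots whose surrounding spots had a median difference between the arrays beyond 1.2 log2 units in either direction. Spike-in scaling used the median over 8 E1A probes, a summary chosen after their values were seen. R 4.3.3 (limma 3.58.1) and Python 3.11.15 (numpy 2.4.6, pandas 2.3.3, matplotlib 3.10.9) were used, and the steps were tested on simulated data.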

Additional observations from a re-analysis of the deposited data

How the results depend on the processing

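The members' count at least 2-fold higher (6) and median (1.11) depended on the scaling, on how dim signals were treated and, for the count, on the threshold. With normexp the count was 3 and the median 0.79, with the series matrix values the median was 1.44, at a 3-fold threshold the count was 1, and over the other alternatives without spike-in scaling the count ran from 4 to 8. Scaling on the E1A spike-in probes moved the median of all genes to -1.76, gave a count of 0 and turned the members' median to -0.65, although that lay 1.11 above the median of all genes as before. Of the 8 spike-in probes 7 differed by 1.53 to 1.94 and the other by 4.73. The same scaling turned Fos to -0.42, Fosb to -0.69, Jun to -0.37, Maff to -0.65, Batf to -0.57, Creb5 to -0.29, Cebpb to -0.50, Map3k8 to -0.016, Rps6ka3 to -0.61, Elk4 to -0.66, the immediate early genes' median to -0.64 and the lymphocyte programme's to -0.67. The share of changed genes that were higher was 67.6%, and 50.9% with median centring, 88.5% with the series matrix, 1.84% with spike-ins, 57.6% where 1 array above background sufficed, 80.3% with no filter, 56.6% at 1.5-fold and 79.6% at 3-fold. No paired analysis was possible because each group holds 1 array, and no replicate could be left out.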

Other observations

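Genes beside the AP-1 loci were few and unevenly spread over the members, and whether they follow the members was not tested. Within 20 kb of the members, 21 probes of 12 other genes were measured on both arrays, with a median difference of -0.04. Of these, 3 probes were at least 2-fold higher and 1 lower, where over all probes 11.6% were higher and 6.51% lower. Most of the 21 lie beside Fosl1, Junb or Jund, which were not among the members at least 2-fold higher. No probe was measured beside Fosl2 or Batf. The higher probes were those of Ctsw, a protease of cytotoxic lymphocytes beside Fosl1 (3.31 and 3.34), and of Gm16486 beside Jund (1.47). The lower probe was that of Rtn2 beside Fosb (-1.5). Fosl1 itself was not well above background on either array. Fam71a, beside Atf3, passed the background only on the odor-enriched array. Junos, the transcript on the strand opposite to Jun, had 1 of its 3 probes above background, whose signal went from 38.9 to 32.3, with a difference of 0.05, where Jun stood at 1.39. These genes were chosen by position, after values of the arrays had been seen.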
